A study of Rattus norvegicus with 29 samples.

Results

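The genes described here encode the protein machinery with which mitochondria translate their own messages, import proteins and move metabolites across the inner membrane. They were chosen by name: every probe set on the array whose single annotated gene symbol starts, ignoring case, with Mrpl or Mrps and a digit (proteins of the mitochondrial ribosome), with Timm or Tomm and a digit (translocases of the inner and outer membrane), or with Slc25a (the mitochondrial carrier family). The rule found 144 probe sets of 126 genes among the 15923 probe sets of the table. The rule itself uses names and no measured value, but these gene families were picked for description with earlier results of these data known. The ribosomal proteins form the larger share, with 58 probe sets of 48 genes for the large subunit and 27 of 26 genes for the small subunit. Import is represented by 11 probe sets of 9 outer membrane genes and 15 of 13 inner membrane genes, and the carriers by 33 probe sets of 30 genes. A further 3 probe sets that match such a symbol together with others (Slc25a51 in 2 of them and Timm23 in 1) lie outside the rule.

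Mitochondria make only a few membrane subunits of the respiratory chain themselves, on ribosomes whose proteins are all encoded in the nucleus and imported. Precursor proteins bind receptors such as Tomm20 and Tomm70, cross the outer membrane through Tomm40 and then enter the inner membrane or matrix through the Timm23 or Timm22 complexes, with small Timm proteins as chaperones in between. Carriers of the Slc25 family exchange ADP for ATP, bring in phosphate and move amino acids and dicarboxylates, steps on which neurons rely for ATP supply and glutamate metabolism.

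Expression was measured on 29 one-colour arrays of rat basolateral amygdala, a brain region required for fear memory. The labels give 9 baseline controls without a time or treatment, and 5 arrays each for rats 6 h after pain, after the inhaled anaesthetic isoflurane, after fear conditioning and after conditioning in the presence of isoflurane. The last 2 groups carry abbreviations, taken here to mean what the submitters' design notes describe. Those notes ask for the changes that belong to memory formation and for those that pain or the amnestic anaesthetic bring alone. The labels name no strain, sex, age, dose or length of exposure. Rat numbers are given for only 15 arrays (pain and both conditioning groups), so the p-values measure the spread between arrays, which are not all stated to be separate animals. The labels give the labelling kit only for baseline and isoflurane arrays, and whether the labelling differed is not stated, so a kit difference and the group cannot be told apart in comparisons that cross that line. The isoflurane arrays also carry sample numbers in a run apart from those of all other arrays. Whether they were processed apart was not tested. It cannot be told apart from the group in any comparison that uses them.

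The deposited signals had been scaled to 1 trimmed mean, and their medians ran from 210.7 to 292.2, with the highest on pain replicate 3. Ratios of 3′ to 5′ probe sets ran from 1.02 to 1.40 for GAPDH and from 1.14 to 2.21 for actin and from 1.95 to 4.90 for hexokinase. The groups overlapped in each, but for GAPDH the isoflurane arrays (1.11 to 1.19) and those of conditioning under isoflurane (1.19 to 1.40) barely did. Baseline replicate 1 stood apart in the choroid plexus and blood markers Ttr and Hbb (mean log2 deviation 2.87), followed by baseline replicate 8 (1.61) and conditioning under isoflurane replicate 5 (1.44). Among the markers of excitatory neurons, Satb1 and Neurod6 did not reach the signal filter. Tissue arrays cannot tell fewer cells of a type from less RNA per cell, which holds for every difference below. Signals were quantile normalized and put on a log2 scale, and all differences below are on that scale. A probe set was tested if its mean lay at or above the 40th percentile of all (7.26), which left 9520, of which 130 from 119 genes belong to the set described here.

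Promoters are shown for 5 genes whose data are described below. Many nuclear genes for mitochondrial proteins are known to carry sites for the factors NRF1, YY1 and the ETS family. Whether such sites bear on the signals measured here was not tested. The sequences are from RefSeq (GRCr8) and run 5′ to 3′ on the gene's strand, from 250 bases before the annotated start through the 50 bases that follow it. Capitals mark matches, on either strand, to GCGCANGCG (an NRF1 core), CCGGAAG (ETS factors) and AANATGGCG (YY1), with overlapping matches to 1 motif joined.
Mrpl44, chr9:88554800-88555099, plus strand: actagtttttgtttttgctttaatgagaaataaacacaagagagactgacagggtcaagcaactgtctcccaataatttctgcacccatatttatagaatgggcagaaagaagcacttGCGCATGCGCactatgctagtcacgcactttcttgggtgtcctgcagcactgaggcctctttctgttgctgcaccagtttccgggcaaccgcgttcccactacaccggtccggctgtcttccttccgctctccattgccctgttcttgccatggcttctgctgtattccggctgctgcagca
Mrpl45, chr10:82804789-82805088, plus strand: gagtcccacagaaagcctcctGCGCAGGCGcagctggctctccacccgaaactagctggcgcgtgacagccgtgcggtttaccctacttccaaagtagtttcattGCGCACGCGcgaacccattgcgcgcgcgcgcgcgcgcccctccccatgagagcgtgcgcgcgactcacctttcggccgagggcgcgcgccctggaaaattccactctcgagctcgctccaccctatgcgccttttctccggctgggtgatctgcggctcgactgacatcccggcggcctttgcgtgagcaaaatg
Mrps27, chr2:32473954-32474253, plus strand: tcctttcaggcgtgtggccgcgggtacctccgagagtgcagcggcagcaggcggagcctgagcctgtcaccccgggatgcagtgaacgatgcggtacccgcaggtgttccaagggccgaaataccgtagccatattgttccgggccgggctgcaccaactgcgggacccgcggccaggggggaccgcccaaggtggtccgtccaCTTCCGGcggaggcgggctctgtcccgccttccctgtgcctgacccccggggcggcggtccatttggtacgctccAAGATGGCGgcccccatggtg
Mrps23, chr10:73495988-73496287, plus strand: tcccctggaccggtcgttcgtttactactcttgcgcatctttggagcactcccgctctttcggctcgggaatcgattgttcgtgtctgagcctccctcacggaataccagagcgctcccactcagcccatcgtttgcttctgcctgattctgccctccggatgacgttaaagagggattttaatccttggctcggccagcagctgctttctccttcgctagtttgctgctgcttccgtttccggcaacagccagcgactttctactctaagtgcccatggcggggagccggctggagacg
Slc25a3, chr7:27506578-27506877, minus strand: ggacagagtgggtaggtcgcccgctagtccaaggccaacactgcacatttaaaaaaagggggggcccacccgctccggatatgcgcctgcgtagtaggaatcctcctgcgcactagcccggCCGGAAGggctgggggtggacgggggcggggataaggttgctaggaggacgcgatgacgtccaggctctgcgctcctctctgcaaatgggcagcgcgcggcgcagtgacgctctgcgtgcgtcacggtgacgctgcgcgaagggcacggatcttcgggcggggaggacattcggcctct

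Mrpl44 carries an NRF1 match 132 to 123 bases before its start, Mrpl45 carries 2, Mrps27 carries an ETS match 46 to 40 bases before the start and a YY1 match after it, Slc25a3 carries an ETS match, and Mrps23 carries none of the 3. A promoter was listed for 108 of the 126 genes. Of these, 53 (49.1%) held at least 1 of the 3 motifs, against 16.4% of all 27457 promoters in the table and 28.3% of the 8611 promoters of genes on the array. The share was 56.7% for the 60 ribosomal promoters and 28.6% for the 28 carrier promoters. An ETS match was the most frequent, in 31.7% of ribosomal and 21.4% of carrier promoters (array genes 15.5%). The NRF1 motif stood in 20.0% of ribosomal and in 3.6% of carrier promoters (array genes 11.9%), and the YY1 motif in 20.0% and 3.6% (array genes 5.8%). A TATAAA box, searched as a contrast, was found in 8.3% of the members' promoters and 8.7% of those of array genes. Matches to different motifs overlapped in 0 of 108 promoters. A match describes letters in this window and shows no binding.

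No single gene of the set passed the test in any comparison. Moderated linear models (limma) with Benjamini-Hochberg adjustment over all 9520 probe sets called 0 of 130 in each of the 7 pairwise comparisons, in the interaction of conditioning with isoflurane and in the F test over the 5 groups. Among all probe sets, the called share was 0% everywhere except for isoflurane minus baseline, where 1 probe set outside the set passed (0.0105%). The lowest adjusted p of a member was 0.356, for Mrps25 in conditioning minus pain. At an unadjusted p under 0.05 there were 9 members for pain (8.96% of all probe sets), 8 for isoflurane (5.38%), 14 for conditioning (10.1%) and 8 for conditioning under isoflurane (6.5%), each minus baseline. The corresponding counts were 15 for conditioning minus pain (9.04%), 5 for conditioning under isoflurane minus conditioning (3.69%), 11 for conditioning under isoflurane minus isoflurane (4%), 5 for the interaction (4.79%) and 9 for the F test (7.35%). As shares of 130 these are 6.92%, 6.15%, 10.8% and 6.15% against baseline, then 11.5%, 3.85%, 8.46%, 3.85% and 6.92%, and the widest gap to the share among all probe sets is 8.46% against 4%. Split by direction, lower members at that p numbered 11 for conditioning minus baseline (8.46% against 5.03% of all probe sets), 7 for conditioning under isoflurane minus baseline (5.38% against 3.26%) and 12 for conditioning minus pain (9.23% against 4.31%), and higher members numbered 7 for isoflurane minus baseline (5.38% against 2.64%). These 4 were singled out after the counts were seen. The standard error of a member's difference had a median of 0.11 against baseline and 0.12 between groups of 5, smaller than over all probe sets (0.13 and 0.14). Members also varied less within groups, with a median SD of 0.18 against 0.23.

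The ribosomal and import members leaned in 1 direction in some comparisons. In conditioning under isoflurane minus isoflurane, 72 of the 81 ribosomal probe sets tested were lower, with a median of -0.09, while 49.3% of all probe sets were lower and their median was 0.0023. The large subunit had 49 of 56 lower (median -0.11) and the small subunit 23 of 25 (median -0.08). Import genes leaned the same way, with 17 of 22 lower (median -0.06), and the carriers did not, with 14 of 27 lower (median -0.0020). The ratio of 3′ to 5′ GAPDH probe sets, a sign of RNA quality, was higher in the group with the lower ribosomal signals, at 1.23, 1.20, 1.40, 1.24 and 1.19 after conditioning under isoflurane against 1.11, 1.19, 1.17, 1.18 and 1.16 after isoflurane. Replicate 3 of conditioning under isoflurane, the array with the lowest ribosomal score of the 29, had the highest GAPDH and hexokinase (4.90) ratios of all. The actin ratio went the other way, with a median of 1.56 after conditioning under isoflurane and 1.66 after isoflurane. Isoflurane replicate 2, with the highest ribosomal score (0.17), had the highest actin ratio (2.21). Hexokinase medians were 3.19 and 3.13. The part of RNA quality in the result was not tested. This comparison also crosses the line between arrays with and without a stated labelling kit, so a kit difference cannot be told apart from the group. The same holds for the separate sample numbering of the isoflurane arrays. Isoflurane replicate 4 carries weight here: without it the ribosomal median was -0.16, and without isoflurane replicate 2 it was -0.06. A lower unadjusted p under 0.05 was found for 9 members, all ribosomal, or 6.92% against 2.12% of all probe sets. No p was computed for these directions, since genes of 1 array are not independent and the set was chosen with results of these data known.

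**Figure D1:**
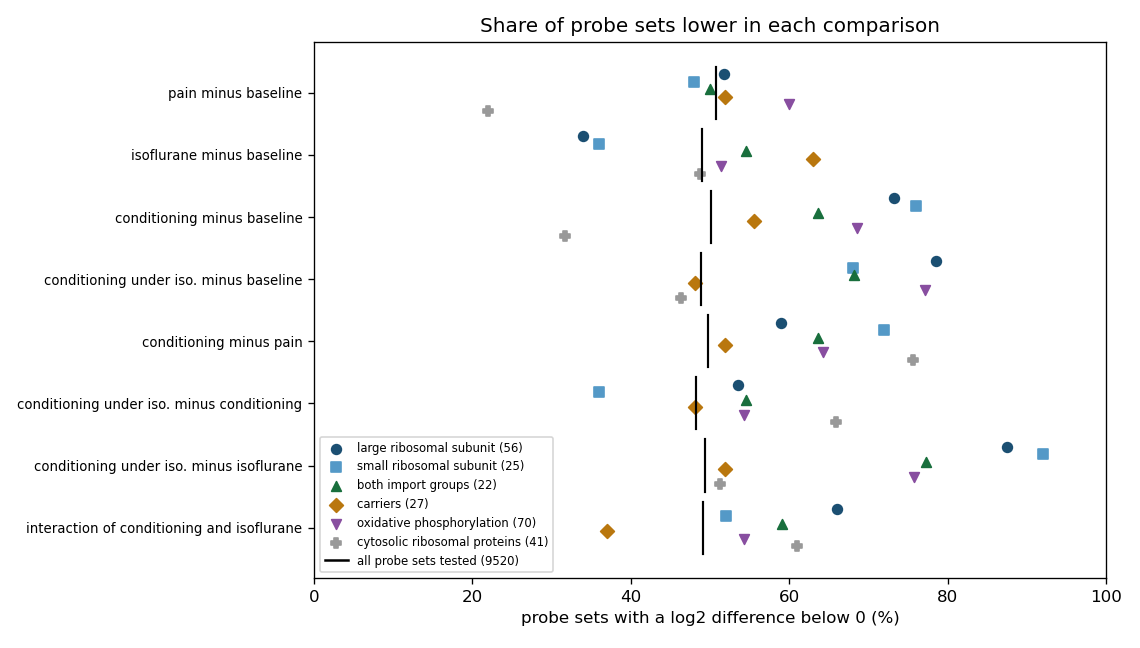
Percentage of tested probe sets with a log2 difference below 0 (horizontal axis) in each comparison (vertical axis), for the role groups, 2 other gene lists and, as vertical bars, all 9520 probe sets. Ribosomal groups lie at 87.5% and 92% in conditioning under isoflurane minus isoflurane, where carriers (51.9%) and all probe sets (49.3%) lie near the middle.

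Against baseline the ribosomal proteins were mostly lower in both conditioning groups, and whether the treatments differ in this was not tested. Comparing either of these groups with baseline also crosses the labelling-kit line. After conditioning 60 of 81 were lower (median -0.06), and after conditioning under isoflurane 61 of 81 (median -0.06). After pain 41 of 81 were lower (median -0.0039), and after isoflurane alone 28 of 81 were lower and 53 higher (median 0.03). These comparisons share the baseline arrays, so their values are given side by side without a measure of likeness. Both conditioning groups were close to each other, with 39 of 81 lower and a median of 0.0048 for conditioning under isoflurane minus conditioning. Conditioning minus pain gave 51 of 81 lower (median -0.04), and the interaction 50 of 81 (median -0.04). The values for pain, isoflurane, conditioning minus pain and the interaction depend on scaling: with each array centred on its median in place of quantile normalization, all probe sets shifted by -0.11 in pain minus baseline and by 0.06 in the interaction, and the ribosomal medians became -0.13 and 0.03, close to those shifts. The same centring gave ribosomal medians of -0.00076 for isoflurane minus baseline and 0.0071 for conditioning minus pain, so neither kept its sign. The centring moves all probe sets, and these medians are not set beside that shift. Whether the ribosomal proteins still lay apart from all probe sets there is therefore not shown. For conditioning minus baseline that centring gave a ribosomal median of -0.15 against -0.06 for all probe sets.

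**Figure D2:**
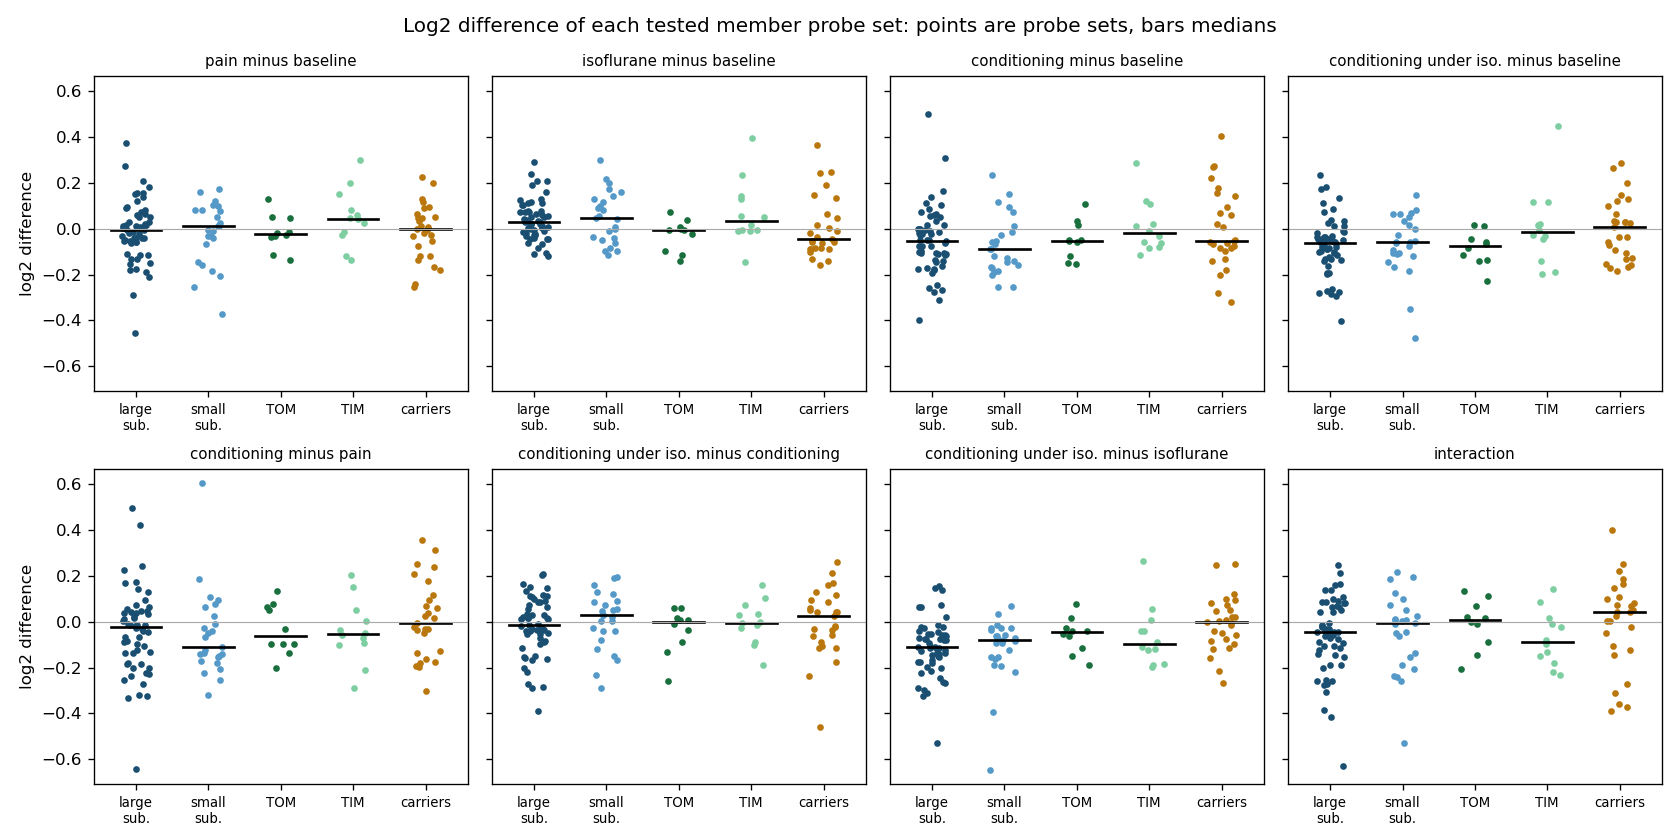
Log2 difference (vertical axis) of each of the 130 tested probe sets, by role (horizontal axis), in the 8 contrasts; points are probe sets and bars are medians. Most points of both ribosomal subunits lie below 0 in conditioning under isoflurane minus isoflurane, with Mrps6 lowest at -0.65, and carriers spread to both sides.

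Among the small subunit proteins, Mrps6 had the lowest p of the set in the F test (adjusted p = 0.674, limma). Its normalized log2 signals were 9.89, 9.71, 9.68, 9.66 and 9.72 on the 5 arrays of conditioning under isoflurane. The isoflurane arrays read 10.14, 10.31, 10.67, 10.47 and 10.31. Every array of the first group therefore lay below every array of the second, and Mrps6 was lower by 0.65 on the log2 scale (log2 difference -0.65 ± 0.15 SE, adjusted p = 0.781, limma). The baseline arrays spanned both groups, from 9.77 to 10.53 with a median of 9.98. Against baseline Mrps6 was at 0.30 ± 0.13 (SE) after isoflurane and at -0.35 ± 0.13 after conditioning under isoflurane, and its interaction estimate was -0.53 ± 0.20 (adjusted p = 0.959, limma).

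The large subunit protein mrpl11, part of the stalk base at which elongation factors act on ribosomes, was also low after conditioning under isoflurane. Its signals there were 10.18, 10.01, 9.91, 9.85 and 9.93, against 10.33, 10.48, 10.38, 10.24 and 10.07 on the isoflurane arrays. The groups overlapped only through replicate 1 of the first and replicate 5 of the second, and the difference was -0.32 ± 0.08 (SE, adjusted p = 0.998, limma). On the baseline arrays mrpl11 ran from 10.13 to 10.40 with a median of 10.24, and 4 of the 5 arrays of conditioning under isoflurane lay below that range. The difference from baseline was -0.27 ± 0.07 (adjusted p = 0.499) and that from conditioning without isoflurane, whose arrays ran from 10.06 to 10.38, was -0.22 ± 0.08.

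Of the 2 members whose arrays did not overlap between conditioning under isoflurane and isoflurane (2 lower, or 1.54%, against 0.462% of all probe sets), Mrps6 is one and mrpl9, a large subunit protein, the other. Its arrays were at 9.44, 9.51, 9.29, 9.45 and 9.28 after conditioning under isoflurane and at 9.82, 9.60, 9.53, 9.58 and 9.69 after isoflurane. The difference was -0.25, and the nearest arrays of the groups were at 9.51 and 9.53. mrpl9 was named for this lack of overlap after its values were seen.

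Mrps23, a small subunit protein, was the member with the lowest p against baseline. Its signals after conditioning under isoflurane were 8.87, 9.43, 9.43, 9.31 and 9.41, all below the lowest of the 9 baseline arrays (lowest 9.55, median 9.77, highest 10.04). It was the only member without overlap in that comparison (0.769% against 0.116% of all probe sets, lower direction). The difference was -0.47 ± 0.12 (SE, adjusted p = 0.448, limma). The choice of baseline arrays decided the call: against baseline replicates 6 to 9 alone the difference was -0.61 with an adjusted p of 0.0427, and against replicates 1 to 5 it was -0.37 with an adjusted p of 0.929. Over all alternatives the adjusted p of Mrps23 ran from 0.0427 to 0.985. The pain arrays of Mrps23 (9.80, 9.38, 9.62, 9.44 and 9.33) overlapped both groups.

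**Figure D3:**
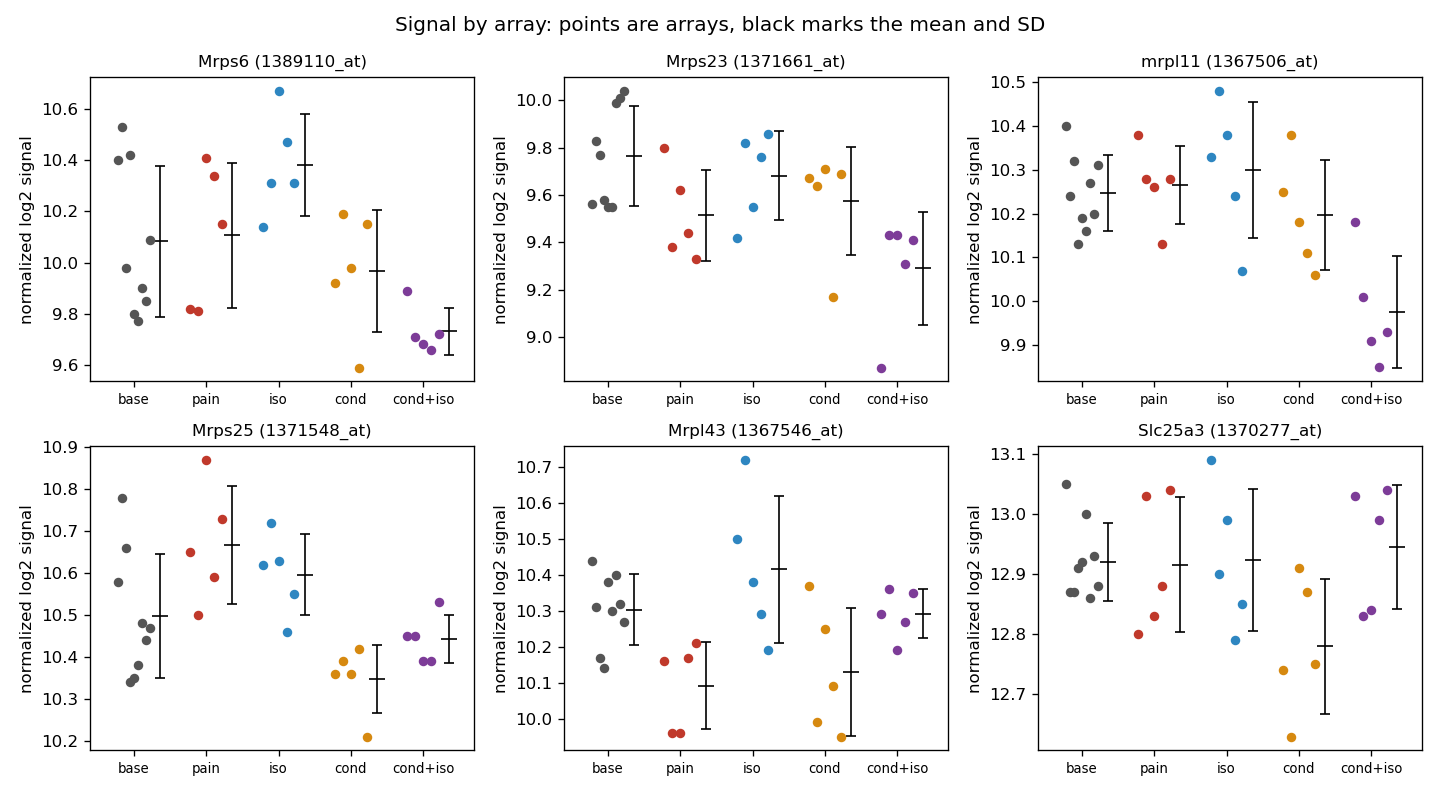
Normalized log2 signal (vertical axis, not starting at 0) of 6 probe sets on every array, by group (horizontal axis: baseline, pain, isoflurane, conditioning, conditioning under isoflurane), with the mean and SD in black. Mrps6 after conditioning under isoflurane lies at 9.66 to 9.89, below all isoflurane arrays at 10.14 to 10.67, and the other panels show Mrps23, mrpl11, Mrps25, Mrpl43 and Slc25a3.

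In conditioning minus pain the lowest p belonged to Mrps25, another small subunit protein. Its conditioning arrays read 10.36, 10.39, 10.36, 10.42 and 10.21, and its pain arrays 10.65, 10.50, 10.87, 10.59 and 10.73, without overlap. The difference was -0.32 ± 0.08 (SE, adjusted p = 0.356, limma). The large subunit proteins Mrpl28 (-0.33 ± 0.10, adjusted p = 0.394) and Mrpl34 (-0.24) were the other members without overlap, 3 in all and all lower (2.31% against 0.62% of all probe sets). Mrpl28 read 9.99, 10.08, 9.96, 10.03 and 9.56 after conditioning and 10.17, 10.39, 10.27, 10.27 and 10.21 after pain. Mrpl34 was named for its lack of overlap after its values were seen. Mrps25 was also at 0.17 ± 0.07 in pain minus baseline, where its pain arrays overlapped the baseline range of 10.34 to 10.78.

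The largest estimate of that comparison, -0.64 ± 0.21 for Mrpl37 (1394292_at), rested on a wide spread. Pain replicate 3 was at 10.12 and the other pain arrays at 8.61, 9.12, 9.01 and 8.87, while conditioning arrays ran from 8.20 to 8.95. A second probe set of Mrpl37 (1398921_at) gave -0.20. Mrps27, which lies on the small subunit and binds RNA, was at 0.60 ± 0.29 in the same comparison, with pain arrays spread from 6.18 to 8.07 and conditioning arrays from 7.70 to 8.20. Mrps27 had the largest SD over the baseline arrays of all tested members, 0.59, followed by probe sets of Mrpl51 (0.46) and Mrpl40 (0.43). The smallest were those of Mrpl53 (0.06), Slc25a3 (0.07) and Slc25a4 (0.08).

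After conditioning alone the lowest p was that of Mrpl44, a large subunit protein related to ribonuclease III. It read 7.81, 8.06, 8.02, 8.02 and 7.87 after conditioning and from 7.88 to 8.55, with a median of 8.23, at baseline. The ranges overlapped at their edges, and the difference was -0.31 ± 0.11 (SE, adjusted p = 0.415, limma). As for Mrps23, the baseline arrays decided the call: the difference was -0.48 (adjusted p = 0.0449) against baseline replicates 6 to 9 and -0.17 (adjusted p = 0.793) against replicates 1 to 5, and over all alternatives the adjusted p ran from 0.0449 to 0.804. Mrpl28 followed at -0.24 ± 0.09.

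Large subunit proteins that stood highest were less clear, since probe sets of the gene disagreed. Mrpl51 has 4 probe sets, all tested. In conditioning minus baseline 3 of them were higher, 1376930_at by 0.31 ± 0.12 and 1379874_at by 0.50 ± 0.23, and 1390188_at was at -0.11. Against pain 1376930_at was at 0.42 ± 0.14, with conditioning arrays at 9.33, 9.21, 9.01, 9.14 and 9.33 and pain arrays from 8.42 to 9.10. After pain, Mrpl43 was at -0.21 ± 0.08 against baseline (adjusted p = 0.473) and Mrpl33 at -0.29 ± 0.13. Mrpl43 read 10.16, 9.96, 9.96, 10.17 and 10.21 after pain and 10.14 to 10.44 at baseline. After isoflurane, Mrps21 was at 0.20 ± 0.09 against baseline and Mrpl4 at -0.12 ± 0.06. In conditioning under isoflurane minus conditioning, Mrpl45, which tethers the ribosome to the inner membrane, was at -0.20 ± 0.09, and Mrpl49 (1373241_at) had an interaction estimate of -0.28 ± 0.12.

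Of the 14 genes with several probe sets, 9 had at least 2 tested. Their probe sets had the same direction in 2 of 9 genes for conditioning under isoflurane minus conditioning, 3 of 9 for pain, 4 of 9 for conditioning under isoflurane minus baseline and for conditioning minus pain, 5 of 9 for isoflurane and for conditioning against baseline, and 6 of 9 for conditioning under isoflurane minus isoflurane and for the interaction. Mrpl50 was opposed in 6 of the 8 contrasts.

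The import genes gave fewer low p-values. Timm8a1, a chaperone of the intermembrane space, had the lowest p among them (probe set 1390237_at). It was at 8.25, 7.81, 8.07, 8.22 and 8.21 after isoflurane and at 8.24, 8.24, 8.49, 7.93 and 7.96 after conditioning under isoflurane, against 7.45 to 8.05 with a median of 7.72 at baseline. Both groups overlapped the baseline range, with differences of 0.39 ± 0.16 (SE, adjusted p = 0.922) and 0.45 ± 0.16 (adjusted p = 0.635, limma). Its paralog Timm8b was at 0.05 ± 0.05 and -0.03 ± 0.05 in the same comparisons. Timm22 (1375565_at), the channel that inserts carriers into the inner membrane, was at 0.30 ± 0.13 in pain minus baseline, while its other probe set gave -0.12. Timm10b, bound to that complex, was at 0.20 ± 0.09 after pain.

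Timm29, a further subunit of the Timm22 complex, was at 0.27 ± 0.12 in conditioning under isoflurane minus isoflurane, against the direction of most import genes. Its arrays read 10.68, 10.32, 10.60, 10.23 and 10.06 against 10.19, 10.04, 10.21, 10.28 and 9.84, so the ranges overlapped. Of the outer membrane receptors, Tomm70 was at -0.14 ± 0.07 in isoflurane minus baseline. The receptor Tomm20 was at -0.15 ± 0.09 and -0.12 ± 0.08 after conditioning by its 2 probe sets, and at -0.14 and -0.06 after conditioning under isoflurane. No import gene had separated groups in any comparison. Among other genes of the import pathway (proteases, chaperones and assembly factors outside the Timm and Tomm families, 29 probe sets), 21 were lower after conditioning and 16 in conditioning under isoflurane minus isoflurane, with 0 called.

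Carriers leaned less. Over the alternatives, some of which shift all probe sets, their median stayed below 0 in conditioning minus baseline (-0.11 to -0.0030). It changed sign in every other comparison. Slc25a3, the phosphate carrier, was at 12.74, 12.63, 12.91, 12.87 and 12.75 after conditioning and at 13.03, 12.83, 12.84, 12.99 and 13.04 after conditioning under isoflurane. The ranges overlapped and the difference was 0.17 ± 0.06 (SE, adjusted p = 0.999, limma). Slc25a11, the oxoglutarate and malate carrier, was at -0.18 ± 0.07 in conditioning minus baseline, with 4 of 5 arrays from 10.82 to 10.90 and replicate 3 at 11.13, against 10.91 to 11.22 at baseline. Slc25a36, a pyrimidine nucleotide carrier, was at 0.25 ± 0.11 in conditioning minus pain and at 0.25 ± 0.11 in conditioning under isoflurane minus isoflurane. Slc25a33, which also carries pyrimidine nucleotides, was at 0.20 ± 0.11 in conditioning under isoflurane minus baseline, and Slc25a45 at 0.26 ± 0.17. Slc25a30 was at -0.26 ± 0.12 after pain, with pain arrays within 7.69 to 7.94 and baseline arrays from 7.78 to 8.60. Slc25a17, a carrier of peroxisomes rather than mitochondria, was at -0.16 ± 0.10 after isoflurane.

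Paralogous carriers were compared within each gene only. The ADP/ATP carriers Slc25a4 and Slc25a5 were at -0.08 ± 0.05 and -0.08 ± 0.06 after conditioning and at -0.09 ± 0.05 and -0.10 ± 0.06 after conditioning under isoflurane. Of the glutamate carriers, Slc25a22 was at -0.20 ± 0.09 after conditioning and Slc25a18, found mainly in astrocytes, at 0.27 ± 0.18. Slc25a18 was at -0.46 ± 0.21 in conditioning under isoflurane minus conditioning, where its arrays read 9.90, 9.85, 9.26, 9.24 and 9.16 against 9.98, 10.54, 9.81, 9.49 and 9.88. Astrocyte markers stood beside it: 10 of 10 probe sets were higher in conditioning minus baseline (median 0.19), and 8 of 10 were lower in conditioning under isoflurane minus conditioning (median -0.14). Their part in the result was not tested. The aspartate/glutamate carrier Slc25a12 was at -0.13 ± 0.11 after conditioning, and its paralog Slc25a13 was not tested. The uncoupling protein relatives Slc25a14 and Slc25a27 (1390401_at) were at -0.32 ± 0.15 and 0.40 ± 0.19 after conditioning, and the other tested probe set of Slc25a27 at 0.02.

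**Figure D4:**
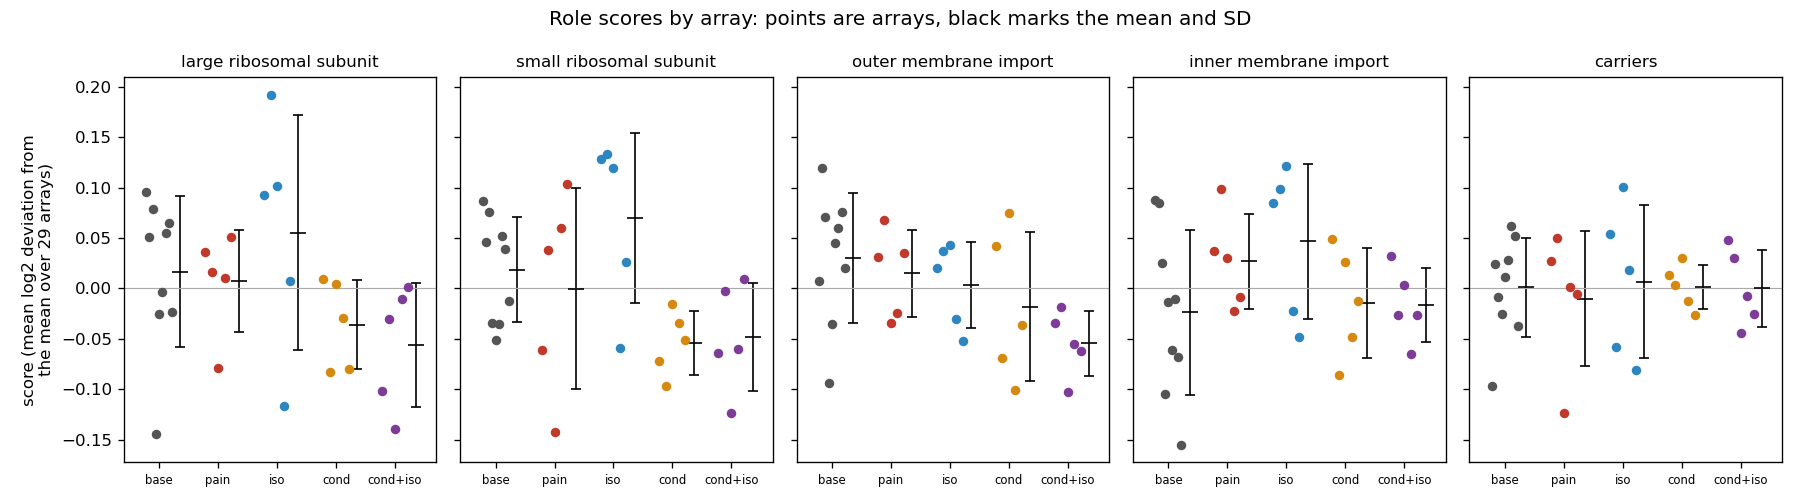
Score of each role on every array (vertical axis: mean log2 deviation of the role's tested probe sets from their mean over 29 arrays), by group, with the mean and SD in black. Isoflurane arrays are split in the ribosomal panels, with replicates 1 to 3 above 0.09 and replicate 4 lowest, and the carriers show no shift between groups.

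Averaging the probe sets of a role on each array shows which arrays carried the directions. The ribosomal score (81 probe sets) was 0.10, 0.17, 0.11, -0.10 and 0.01 on isoflurane replicates 1 to 5. It was -0.09, -0.02, -0.13, -0.03 and 0.0040 after conditioning under isoflurane, and -0.02, -0.09, -0.0016, -0.03 and -0.07 after conditioning. So every isoflurane array but replicate 4 lay above all 10 conditioning arrays, replicate 5 only narrowly (0.01 against 0.0040). Isoflurane replicate 4 lay below all of these 10 but 1. Pain arrays ran from -0.10 (replicate 3) to 0.07, and baseline arrays from -0.11 (replicate 4) to 0.09, a range that held all conditioning arrays but 1. The carrier score had group means from -0.01 to 0.0066 with SDs of 0.02 to 0.08.

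After each group's mean was taken out, the large and small subunit scores went together over the 29 arrays (Pearson r = 0.785, Spearman rho = 0.754, and r = 0.762 without the 2 arrays farthest from the median of the large subunit score). The large subunit score also went with that of oxidative phosphorylation (70 probe sets outside the set, r = 0.774, rho = 0.703) and of outer membrane import (r = 0.650). Without the same 2 arrays, r was 0.673 and 0.572. The small subunit score went less with oxidative phosphorylation (r = 0.471, rho = 0.448, and r = 0.348 without the 2 arrays farthest from its own median). The large subunit score did not go with that of the carriers (r = 0.172, rho = 0.192) or of the cytosolic ribosomal proteins (41 probe sets, r = 0.096, rho = 0.028). The carrier score did go with that of outer membrane import (r = 0.514, rho = 0.606), and less with that of inner membrane import (r = 0.195, rho = 0.266). These are descriptions of 29 arrays that share their normalization, and no p is given.

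**Figure D5:**
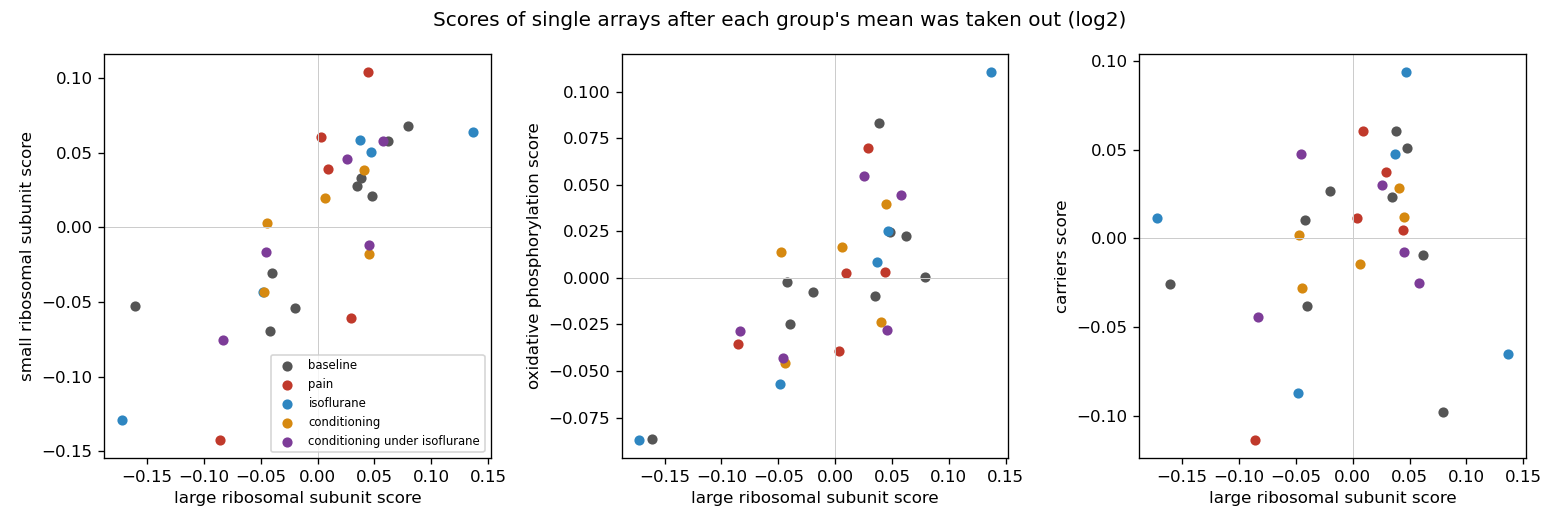
Scores of single arrays after each group's mean was taken out: large subunit score (horizontal axes, log2) against the small subunit, oxidative phosphorylation and carrier scores (vertical axes, log2), coloured by group. The first 2 panels rise from lower left to upper right (r = 0.785 and 0.774 over 29 arrays) and the carrier panel does not (r = 0.172).

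Other genes of these pathways were read beside the members. Oxidative phosphorylation probe sets were lower in 54 of 70 for conditioning under isoflurane minus baseline (median -0.05) and in 53 of 70 against isoflurane (median -0.05), with 0 called. Mitochondrial translation factors and tRNA synthetases outside the ribosome (17 probe sets) were lower in 14 and 13 of 17 in those comparisons (medians -0.05 and -0.06). In pain minus baseline 13 of 17 were lower (median -0.06), beside 41 of 81 ribosomal proteins, a difference that was not tested. Transporters outside the Slc25 family (19 probe sets) were lower in 8 of 19 against isoflurane (median 0.0094), as balanced as the carriers. Regulators of mitochondrial biogenesis (8 probe sets) were lower in 6 of 8 against isoflurane, and Ppargc1a, Nrf1, Gabpa and Yy1 are among the 11 listed genes not tested. Cytosolic ribosomal proteins, whose products serve the other translation system of the cell, had 32 of 41 higher after pain (median 0.07, not recomputed with the centring that shifted all probe sets there) and 21 of 41 lower in conditioning under isoflurane minus isoflurane.

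Markers of cell types were read beside the directions. In conditioning minus baseline 8 of 8 oligodendrocyte probe sets were higher (median 0.34), and their mean deviation ran from 0.05 to 0.42 on conditioning arrays and from -0.50 to 0.23 at baseline. All 6 microglial probe sets were higher there too (median 0.22). Of the interneuron probe sets 6 of 8 were lower (median -0.25), and both vascular ones were higher (Cldn5 and Rgs5, median 0.29). In conditioning under isoflurane minus baseline both vascular probe sets were higher (median 0.39), with a mean deviation of -0.0061 to 0.41 on those arrays and -0.53 to 0.09 at baseline. There 7 of 8 oligodendrocyte (median 0.06), 7 of 10 astrocyte (median 0.09) and 4 of 6 microglial probe sets (median 0.06) were higher, and 6 of 8 interneuron probe sets lower (median -0.07). Excitatory neuron markers (5 probe sets) leaned the other way from the interneuron ones. Their mean deviation was -0.05 at baseline (arrays from -0.63 to 0.48), 0.06 after isoflurane, 0.07 after conditioning and 0.10 after conditioning under isoflurane. For markers of striatum (3 probe sets) it was 0.15, -0.07, -0.17 and 0.09 in the same order. Ribosomal members were mostly lower in both conditioning groups against baseline, and the part of these markers in that was not tested. In conditioning under isoflurane minus isoflurane, the direction of the ribosomal proteins stood beside 4 of 8 oligodendrocyte probe sets lower (median 0.0090), 7 of 10 astrocyte probe sets higher (median 0.05), 6 of 8 interneuron probe sets lower (median -0.04) and both vascular probe sets higher (median 0.17).

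The 14 probe sets below the signal filter give no test. They belong to Mrpl37, Mrpl52, Mrps26, Slc25a27, Timm8a1 and Tomm40l, each of which has another probe set that was tested, and to 7 genes without one: Mrps31, Slc25a13, Slc25a21, Slc25a35, Slc25a48 (2 probe sets), Timm17b and Timm44. Their mean log2 signals ran from 4.00 (Slc25a35) to 7.10 (Slc25a48), which describes these probe sets and not the genes' abundance. Nothing can be said here of Timm44, which anchors the import motor to the Timm23 channel, or of the second aspartate/glutamate carrier Slc25a13.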

How the data were processed

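The values are the array intensity signals deposited by the authors, 1 column per sample; the deposited intensities are linear and had been scaled so that each of 29 arrays has a trimmed mean (2% off either end) near 500.1. The software and genome build are not given in the sources used here. Columns outside these samples numbered 0. After removal of 57 control probe sets, signals were quantile normalized, values under 16 were set to 16, and log2 was taken. Probe sets below the 40th percentile of mean signal were left out. Differences come from limma 3.58.1 (R 4.3.3) with 1 model over the 5 groups, a variance trend and Benjamini-Hochberg adjustment over 9520 probe sets, at a threshold of 0.05. Tested on simulated data for pain minus baseline over 9520 probe sets, the test found 66 of 100 changes of 0.5 and 95 of 100 changes of 1 (log2), with 14 false calls. Gene names follow the platform annotation, and all 144 members matched RefSeq (GRCr8) by gene identifier.

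Members and gene lists were chosen with earlier results of these data known. Named genes are the 3 members with the lowest p in each direction of each comparison, the 5 with the lowest p in the F test, genes with several probe sets, 6 paralog pairs, and the 3 largest and smallest baseline SDs. Alternatives were other scalings, filters, floors, variance models and sets of arrays, and leaving out each replicate.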

Additional observations from a re-analysis of the deposited data

Results flagged for a closer look

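Single arrays that stood apart within their group were looked for in 245 groups of arrays, over 42 named probe sets and 7 scores, by the gap of the highest or lowest array to its neighbour relative to the group's range (Dixon's 95% value). There were 18 such groups, and chance gives about 1 in 20. Explanations were not tested.

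Among the ribosomal proteins, arrays at the low end were Mrps25 on conditioning replicate 5 (10.21), Mrpl28 on conditioning replicate 5 (9.56), Mrps23 on conditioning replicate 4 (9.17) and on conditioning under isoflurane replicate 1 (8.87), Mrpl33 on pain replicate 3 (9.94) and Mrpl40 (1388517_at) on pain replicate 3 (6.27). Arrays at the high end were Mrps6 on conditioning under isoflurane replicate 1 (9.89), Mrpl45 on baseline replicate 2 (9.38) and Mrps7 on baseline replicate 2 (10.25).

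Among import genes, Timm8b was high on conditioning under isoflurane replicate 2 (11.96) and Tomm20 (1370785_s_at) low on conditioning replicate 2 (11.11). Among carriers, Slc25a27 was high on conditioning under isoflurane replicate 1 (8.01, 1390401_at) and on isoflurane replicate 3 (9.07, 1387433_a_at), and Slc25a11 high on conditioning replicate 3 (11.13). Slc25a14 was low on conditioning replicate 2 (8.24) and Slc25a18 low on baseline replicate 1 (9.00), the array that also stood apart in the choroid plexus and blood markers.

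Among the pain arrays, the score of all members was lowest on replicate 3 (-0.087), the array with the highest deposited median. Among the baseline arrays, the large subunit score was lowest on replicate 4 (-0.14).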

How the results depend on the processing

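The number of members called stayed at 0 in all 9 tests under every alternative except the baseline subset 6 to 9. Against baseline replicates 6 to 9 alone, 1 member was called for conditioning (Mrpl44, -0.48) and 1 for conditioning under isoflurane (Mrps23, -0.61), with 101 and 57 calls among all probe sets where the fit with 9 baseline arrays made 0. The cause was not tested. Over the alternatives the ribosomal median changed sign in pain minus baseline (-0.13 to 0.018), isoflurane minus baseline (-0.00076 to 0.075), conditioning minus pain (-0.086 to 0.0071), conditioning under isoflurane minus conditioning (-0.012 to 0.047) and the interaction (-0.063 to 0.027). It stayed below 0 in the other 3 comparisons. All 3 set a group without a stated labelling kit against arrays with one, so a kit difference cannot be told apart from the group there. Pain minus baseline crosses that line too, and its median changed sign.

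With arrays centred on their medians, the median of all members and of the ribosomal proteins was -0.13 and -0.13 in pain minus baseline (all probe sets -0.11), -0.14 and -0.15 in conditioning minus baseline (all -0.06), and 0.039 and 0.027 in the interaction (all 0.06). Without 1 replicate at a time, the ribosomal median in conditioning under isoflurane minus isoflurane ran from -0.16 to -0.064, and that of all members from -0.10 to -0.06. In the fit with a replicate block the member count there was 0 and the medians were -0.08 and -0.09.

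Counts over all probe sets moved as follows. Pain minus baseline gave 10 calls with median centring, 4 with the filter at the 70th percentile, 160 against baseline replicates 6 to 9, and 6, 5 and 2 without baseline replicate 3, baseline replicate 4 or pain replicate 4 (0 otherwise reported). Isoflurane minus baseline gave 29 against baseline replicates 6 to 9, and 0 with centring, the replicate block, only the groups compared, baseline replicates 1 to 5, or without isoflurane replicate 1, 3, 4 or 5. Conditioning minus pain gave 2 without a variance trend, and 1 to 3 without pain replicate 1, 2 or 4 or conditioning replicate 5.

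Replicate numbers are not stated to pair arrays, and same-numbered arrays did not deviate together (50 pairs, r from -0.24 to 0.26, median -0.01). 6 of 25 arrays went best with their own number. The replicate block changed no member's call. With 5 pain and 9 baseline arrays, the test on simulated data found 66 of 100 changes of 0.5 and 95 of 100 of 1 (log2). All 200 changes were in the same simulated data, and a lone change was not simulated. Comparisons between groups of 5, whose standard errors are larger, were not simulated.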
